A study of Caenorhabditis elegans with 4 samples.

Results

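The 220 srh genes of Caenorhabditis elegans are the largest of the chemoreceptor families described here, and they were examined for peaks of the zinc finger protein SEA-2. All protein-coding genes whose symbol begins with srh- were taken, which gave 220 of the 19973 nuclear protein-coding genes of the WBcel235 assembly (the same build as ce11). Of these, 2 have an srh- symbol in both Ensembl and RefSeq that differs in number between them. Whole L3 larvae of both sexes were used for ChIP-seq, in which DNA attached to a tagged protein is precipitated and sequenced. All samples came from strain OP193, whose genotype is unc-119(ed3), a mutation that all worms carry, with the integrated transgene wgIs193. That transgene holds sea-2 tagged at its C terminus with TY1, EGFP and FLAG and a copy of unc-119, and no untagged strain was analysed here. There were 4 biological replicates of this 1 group. For replicates 1 and 2 the labels give a fragment size range and a stock centre as source of the worms. For replicates 3 and 4 they give sonication and the submitting laboratory.

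The srh (serpentine receptor class H) genes encode G protein-coupled receptors of the Str superfamily, most of them without a known ligand. Chemoreceptors of this kind act in ciliated sensory neurons, often only a few cells of the worm, where they are carried to the cilium and signal through G proteins and ion channels. Their genes lie in clusters of repeated copies, mainly on chromosome V. SEA-2 is known as an autosomal signal in sex determination, where it acts on xol-1, and as a regulator in the heterochronic pathway. In whole larvae, binding in a few sensory neurons and no binding cannot be told apart, and no peak in a list does not show that the protein was absent.

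The data were 6 peak lists. The list of each replicate held peaks together with background regions, a pooled list was called from all replicates together, and the final list holds those pooled peaks that passed the authors' reproducibility threshold. The lists held 23684 peaks in replicate 1, 30000 each in replicates 2, 3 and 4, 3912 in the pooled list and 312 in the final list. All 312 final peaks were the strongest of the pooled list by the authors' signal value. Few peaks of the long lists had a −log10 q-value of at least 2: 193, 2589, 215 and 53 in replicates 1 to 4 and 217 in the pooled list. The sequencing depth of the libraries is unknown, since no read number was found in the labels or file records. A gene was counted as having a peak when a summit, the highest point of a peak, lay from 1000 bp upstream to 200 bp downstream of any of its annotated starts.

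The sequences of 5 promoter regions are shown: those of both srh genes with a pooled summit, those at the best-ranked srh summits of replicates 3 and 4, and, beside them, a promoter with a final peak. All are from ce11, printed 5′ to 3′ on the gene's strand, with 21 bases around the summit in capitals. The promoters of srh-56 and srh-11, at chrV:2771610-2771909 on the plus strand and chrX:8319001-8319300 on the minus strand, belong to the 2 srh genes with a pooled summit and run from 250 bases before the annotated 5′ end to 50 bases from it on. The stretches reaching 50 bases to each side of the best summits of srh-289 (chrV:17794519-17794619, minus strand) and srh-16 (chrV:12291754-12291854, plus strand) belong to the lists of replicates 4 and 3. The promoter of his-37, a core histone gene at chrV:9546855-9547154 on the plus strand, holds the strongest final peak of chromosome V that lies within such a stretch. Histone genes have near-identical copies, so the placement of its reads is uncertain.
srh-56: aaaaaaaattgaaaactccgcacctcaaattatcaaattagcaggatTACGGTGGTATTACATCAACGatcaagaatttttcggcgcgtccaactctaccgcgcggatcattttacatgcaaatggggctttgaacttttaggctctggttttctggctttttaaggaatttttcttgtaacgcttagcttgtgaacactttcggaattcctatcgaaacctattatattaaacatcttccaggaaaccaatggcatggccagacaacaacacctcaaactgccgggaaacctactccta
srh-11: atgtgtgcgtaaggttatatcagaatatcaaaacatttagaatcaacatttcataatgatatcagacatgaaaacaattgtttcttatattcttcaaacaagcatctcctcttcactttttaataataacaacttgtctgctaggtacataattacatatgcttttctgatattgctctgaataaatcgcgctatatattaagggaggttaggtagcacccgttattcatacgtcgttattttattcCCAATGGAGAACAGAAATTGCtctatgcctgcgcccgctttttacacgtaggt
srh-289: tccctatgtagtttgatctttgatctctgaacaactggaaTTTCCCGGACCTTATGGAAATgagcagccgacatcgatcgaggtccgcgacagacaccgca
srh-16: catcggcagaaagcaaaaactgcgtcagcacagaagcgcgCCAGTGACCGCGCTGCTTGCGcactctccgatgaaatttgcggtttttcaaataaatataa
his-37: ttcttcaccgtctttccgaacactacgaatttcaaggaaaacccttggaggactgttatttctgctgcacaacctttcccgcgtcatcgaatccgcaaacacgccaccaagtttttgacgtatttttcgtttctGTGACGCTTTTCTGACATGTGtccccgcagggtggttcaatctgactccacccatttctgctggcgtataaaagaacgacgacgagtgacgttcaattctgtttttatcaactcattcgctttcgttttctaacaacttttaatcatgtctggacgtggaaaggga
The GC content was 40.3% in the srh-56 promoter and 34% in the srh-11 promoter, against 44.7% in the his-37 promoter. It was 49.5% in the srh-289 stretch and 48.5% in the srh-16 stretch. None of the 5 sequences held GAGAGA or its reverse complement TCTCTC.

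The srh genes lay mostly on the arms of chromosome V. Of the 220 genes, 180 (81.8%) were on V, 27 on II, 7 on IV, 3 on I, 2 on X and 1 on III. The arms, taken as the 33.3% of the length at each end of a chromosome, held 188 srh genes (85.5%), against 62.0% of the other 19753 protein-coding genes. Neighbouring srh starts were a median 16440 bp apart, and 158 srh genes had another srh start within 20000 bp. Most members had a single annotated start: 204 had 1, and the highest number was 7 (srh-2). The annotated 5′ end was a start codon in 171 srh genes (77.7%), against 4514 other genes (22.9%). Upstream sequence is then counted from a codon instead of a transcript start, so windows of the gene groups were not placed alike.

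No srh gene had a final peak. The final list gave 0 of 220 srh genes, against 222 of 19753 other genes (background 1.12%), and 0 of 180 srh genes of V against 24 of 4814 other genes there (0.499%). Weighted to the chromosomes on which the srh genes lie, the share of other genes was 0.593%. The count of 0 has an exact 95% Clopper-Pearson interval up to 1.66%, and 3 genes would be 1.36%, so a difference from the other genes was not detectable with this list. Such intervals cover counting error only, and genes that share a window are not independent. The 21 other chemoreceptor families also had 0 final peaks in 1089 genes, and the 888 protein-coding genes outside these families that lay within 20000 bp of an srh start had 0.

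Final peaks were also far from the srh genes. The nearest final summit lay a median 327978 bp from an srh start, against 144875 bp from the other genes. On chromosome V alone these medians were 373180 bp for srh genes, against 242012 bp for other genes and 372337 bp for the non-receptor genes near srh starts. No srh gene had a final summit within 5000 bp, against 646 other genes (3.27%) in the genome, 1.64% of other genes of V and 2 of the 888 neighbouring non-receptor genes (0.225%). At the share of those neighbours, a count of 0 among the srh genes is no difference. The 5 srh genes nearest to a final summit were srh-16 at 11823 bp, srh-183 at 27627 bp, srh-173 at 32661 bp, srh-19 at 33849 bp and srh-17 at 35684 bp. The srh median on V was thus close to that of the neighbouring non-receptor genes.

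Of the srh genes, 2 had a pooled peak, srh-56 and srh-11. This was 0.909% of the 220 (exact 95% interval 0.110% to 3.25%), against 1845 other genes (9.34%) in the genome and 252 (5.23%) on V. The chromosome-weighted share of other genes was 5.97%, above the interval of the srh genes. That interval covers counting error only and treats clustered genes as independent, so this is not a test. Closer comparison genes had lower shares: 29 of the 888 neighbouring non-receptor genes (3.27%) and 19 of the 1089 genes of other receptor families (1.74%). The share of the other receptor families lay inside the srh interval. Among genes whose 5′ end is a start codon the shares were 2 of 171 srh genes (1.17%), against 3.37% of other genes after weighting. On the arms of V they were 1 of 155 srh genes (0.645%), against 3.81% of other genes. With a window reaching 2000 bp upstream the count was 8 of 220 srh genes, against a share of 8.70% of other genes. With any 1 bp of a peak in the window it was 6 of 220, against 6.85%. Since 9 of 220 genes are 4.09%, both srh shares were below those of other genes. The pooled list is 1 product of all replicates, so this difference has no replicate check.

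Both pooled srh peaks were among the weak ones of their list. The srh-56 gene (WBGene00005279, chrV:2771860-2773519, plus strand) had its pooled peak at chrV:2771497-2771836, with the summit 193 bp upstream of the annotated start. Its signal value was 30.3, rank 3887 of 3912, with a −log10 q-value of 0.0173. The srh-11 gene (WBGene00005237, chrX:8317637-8319050, minus strand) had a peak at chrX:8318873-8319212, with the summit 7 bp inside the gene. Its signal value was 31.1, rank 3420 of 3912, with a −log10 q-value of 0.0368. The final peak at his-37 had a signal value of 118 in the same units, rank 20. Of the 30-base words in the srh-11 window, 64.2% occurred once in the genome, so reads there can be shared with other sites, and all words of the srh-56 window (100%) were unique.

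The long replicate lists placed a summit at many srh genes, at a lower share than at other genes in each replicate. The counts of srh genes were 34, 64, 70 and 67 in replicates 1 to 4, or 15.5%, 29.1%, 31.8% and 30.5% of the 220. The other genes had 35.1%, 37.9%, 41.6% and 40.4% before weighting, and 29.0%, 33.7%, 36.9% and 35.4% after weighting by chromosome. The mean over replicates was 26.7% ± 7.58 for srh genes, against 33.8% ± 3.42 for other genes (SD, n = 4). The 4 values of srh genes and the 4 weighted values of other genes overlapped in range, while within each replicate the srh share was the lower one.

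The difference, srh minus weighted other genes, was -13.6, -4.57, -5.12 and -4.94 percentage points in replicates 1 to 4. Its mean was -7.05 ± 4.35 (SD, n = 4), below 0 in 4 of 4 replicates (two-sided exact sign-flip permutation test, p = 0.125). With 4 replicates 0.125 is the smallest p this test allows, and adjusted over the 3 tests made it stayed at 0.125. Within the pair of replicates with the size range it was -13.6 and -4.57, and within the sonicated pair -5.12 and -4.94. The difference depended on the genes compared: it was -0.811 ± 2.40 among genes whose 5′ end is a start codon (exact p = 0.75), where 2 replicates were below 0. It was -3.04 ± 3.90 on the arms of V and -3.81 ± 3.96 against the neighbouring non-receptor genes (SD, n = 4). Both were below 0 in all 4 replicates, with replicate 1 the lowest. The arms gave -8.65, -0.181, -2.69 and -0.646 in replicates 1 to 4, and the neighbours -9.55, -3.34, -0.952 and -1.41. On the arms 1 of 155 srh genes is 0.645 points, so replicates 2 and 4 differed by about 1 gene or less. With peaks of a −log10 q-value of at least 2 the mean difference was -0.923, from 0, 2, 0 and 0 srh genes in replicates 1 to 4. A count of 0 srh genes cannot give a value above 0, so the sign in replicates 1, 3 and 4 shows nothing.

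**Figure D1:**
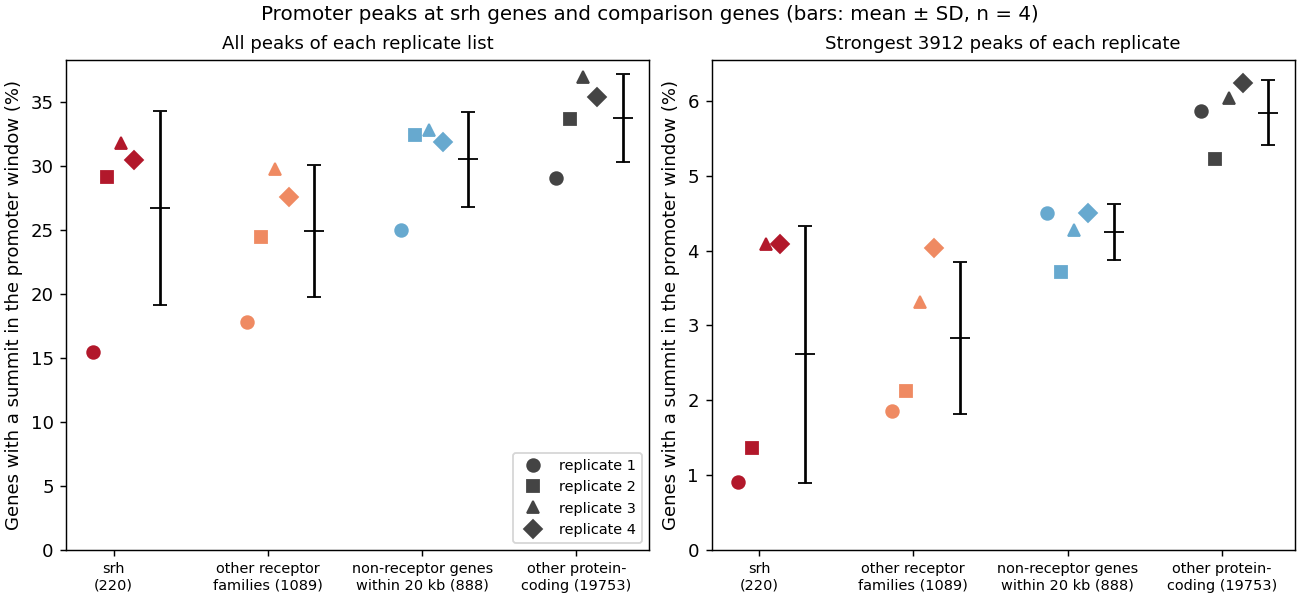
Share of genes with a summit in the promoter window (vertical axis, percent) for srh genes, the other receptor families, non-receptor genes near srh starts and all other protein-coding genes, in all peaks (left) and in the 3912 strongest peaks of each replicate (right). Symbols are the 4 replicates and bars are mean ± SD; families and other genes are weighted to the srh chromosomes. In the right panel the srh values (0.909% to 4.09%) lie below those of the other protein-coding genes (5.23% to 6.24%).

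In the strongest peaks the srh share was again below that of all other genes in each replicate. The 3912 strongest peaks of each replicate, as many as the pooled list holds, reached 2, 3, 9 and 9 srh genes, or 0.909%, 1.36%, 4.09% and 4.09%. The background over other genes was 8.7%, 6.96%, 8.33% and 7.58%, and 5.87%, 5.23%, 6.04% and 6.24% after weighting. These srh and weighted values did not overlap. The difference was -4.96, -3.87, -1.95 and -2.14 points, with a mean of -3.23 ± 1.44 (SD, n = 4), below 0 in 4 of 4 replicates (two-sided exact sign-flip permutation test, p = 0.125, the smallest possible). It was further below 0 in both replicates with the size range (1 and 2) than in both sonicated ones (3 and 4), and the cause was not tested. Against the neighbouring non-receptor genes, at 4.50%, 3.72%, 4.28% and 4.50%, the mean difference was -1.64. Its values were -3.60, -2.35, -0.188 and -0.414 in replicates 1 to 4, so it was near 0 in the sonicated pair. Among genes that begin at a start codon the mean difference was -1.79, below 0 in 4 of 4 replicates. It was -0.444 with the 312 strongest peaks (exact p = 0.25), where 3 of 4 replicates were below 0 and replicate 4 was at 0.0252. Replicates 1 to 3 had no srh gene in those peaks, so their values could not be above 0 and their sign shows nothing. The mean difference was -1.47 with the 1000 strongest peaks and -6.77 with 10000, below 0 in 4 of 4 replicates with both. In the 1000 strongest peaks, replicates 1 and 2 again had no srh gene, as their best srh ranks were 3376 and 2015. The other receptor families, weighted, had 1.86%, 2.13%, 3.32% and 4.03% in the 3912 strongest peaks of replicates 1 to 4. The srh share was lower than theirs in replicates 1 and 2 and higher in replicates 3 and 4, so a low share was not particular to srh.

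No srh gene was in the strongest peaks of more than 1 replicate. The 23 genes reached in any replicate were all different. With 2 to 9 of 220 genes reached in a list, few could be shared by lists that had nothing to do with each other, so this count is a description of the lists and is not set against other genes.

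Over the full lists, most srh genes had a summit in no replicate or in 1. A summit was present in 0, 1, 2, 3 and 4 replicates for 68, 88, 47, 15 and 2 srh genes. As shares these were 30.9%, 40%, 21.4%, 6.82% and 0.909% of srh genes, against 28.6%, 31.2%, 22.5%, 12.0% and 5.72% of other genes after weighting. Presence in at least 1 replicate was thus common in both groups, and presence in 3 or 4 was less common in the srh genes. This was not tested. Low presence in 4 of 4 replicates was not particular to srh. It was found for 4 of 193 str genes, 2 of 109 srw genes and no srx gene, while the smaller srz family had 4 such genes. The replicates share 1 control, so their agreement is not wholly independent.

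**Figure D2:**
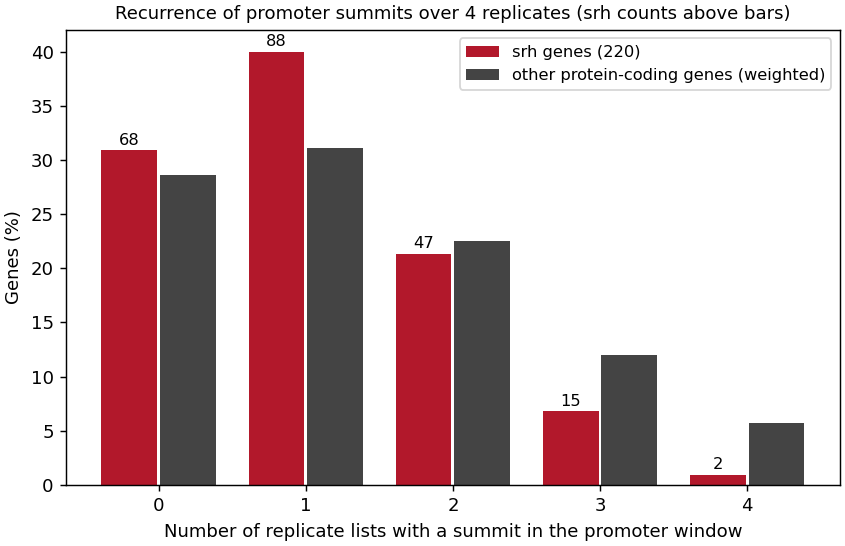
Share of genes (vertical axis, percent) by the number of replicate lists with a summit in the promoter window (horizontal axis), for srh genes and for other protein-coding genes weighted by chromosome; numbers above the srh bars are gene counts. The srh bar is higher at 1 replicate (40% against 31.2%) and lower at 4 (0.909% against 5.72%).

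The members with a summit in 4 of 4 replicates were srh-56 and srh-149. For srh-56 the best ranks were 16817, 8181, 1461 and 10349 in replicates 1 to 4, at -196, -370, -915 and -274 bp from the start. Only the summit of replicate 1 lay within 10 bases of the pooled one. The peaks of these summits overlapped the pooled peak in replicates 1, 2 and 4 but not in replicate 3 (chrV:2770763-2771126). The 4 lists thus did not mark 1 position. The srh-149 gene (WBGene00005365, chrV:15839964-15841195, minus strand) had ranks 18519, 22282, 28605 and 1984, at -217, 60, -76 and -265 bp. It had no pooled peak, and it was strong in replicate 4 only.

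The 15 genes with a summit in 3 replicates included srh-11, whose ranks were 14285, 6121 and 4676 in replicates 1, 3 and 4. These summits lay -6, -23 and 117 bp from the start, and none was found in replicate 2. The positions in replicates 1 and 3 lay within 30 bases of the pooled summit at 7 bp. Other genes of this group were srh-129, with ranks 3001, 18875 and 12792 in replicates 2, 3 and 4, and srh-166, with 16457, 12474 and 1991 in replicates 1, 2 and 4.

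The strongest srh summits differed from replicate to replicate. In replicate 1 they were at srh-2 (rank 3376) and srh-250 (rank 3729, 118 bp upstream). The srh-2 summit, at chrV:730535, lay inside the gene (chrV:728301-734311, plus strand), 868 bp upstream of an internal one of its 7 annotated starts. In replicate 2 they were at srh-24 (rank 2015, at -607 bp) and srh-240 (rank 2153, 787 bp upstream), the only srh summits of any replicate with a −log10 q-value of at least 2. The srh-24 summit was closer to the start of algn-13, at 354 bp. In replicate 3 they were at srh-16 (rank 759, 57 bp upstream) and srh-235 (rank 1266, 576 bp upstream). In replicate 4 they were at srh-289 (rank 222, 483 bp upstream, signal value 15.3) and srh-272 (rank 1591, 129 bp upstream). The srh-289 summit shown above was the only srh summit within the 312 strongest of any replicate, and the other summit of that gene, in replicate 2, had rank 12311 at 149 bp. The srh-16 gene had a further summit in replicate 4, rank 18149 at -345 bp.

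A few srh genes have a known site of expression. Both srh-220 and srh-234 are active in the ADL sensory neurons, and srh-234 responds there to feeding state. The srh-220 gene had a summit in none of the lists. The srh-234 gene had 1, in replicate 4, with rank 2130 at -562 bp. Both were picked after their values were seen.

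In replicates 1 to 3 the srh summits had weaker ranks than those of other genes. Summits in srh windows numbered 34, 69, 75 and 75 in replicates 1 to 4. Their median rank percentile, from 0 for the strongest peak to 100 for the weakest, was 67.9, 64.3, 69.9 and 49.6. Summits in windows of other genes had medians of 46.7, 48.4, 47.4 and 48.1. The difference was 21.2, 15.9, 22.6 and 1.51 percentile points, a mean of 15.3 ± 9.63 (SD, n = 4), above 0 in 4 of 4 replicates (two-sided exact sign-flip permutation test, p = 0.125, adjusted p = 0.125). In replicate 4 the medians nearly coincided. Against the neighbouring non-receptor genes the mean was 10.7, and with the window widened to 2000 bp upstream it was 9.18. The median GC content within 50 bp of the summits was 33.2%, 36.6%, 32.7% and 34.7% for srh summits, against 35.6%, 39.6%, 34.7% and 35.6% for other summits.

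**Figure D3:**
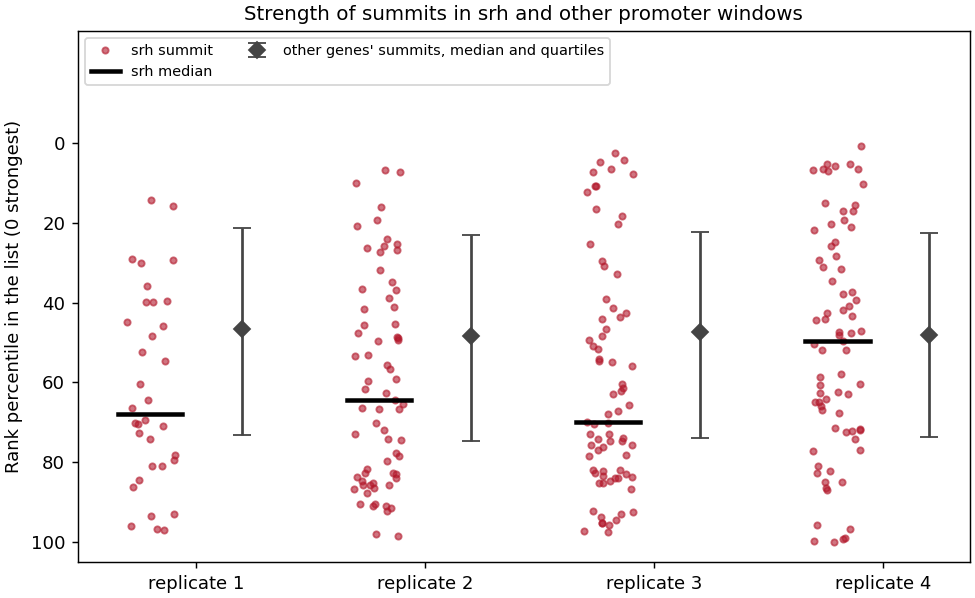
Rank percentile of each summit within its replicate list (vertical axis, 0 strongest, 100 weakest), for srh windows (points, with the median as a bar) beside the median and quartiles of summits at other protein-coding genes (diamonds). The srh median lies lower on the plot, at weaker ranks, in replicates 1 to 3 and is close to that of other genes in replicate 4.

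The density of summits in srh windows was close to the chromosome average in most replicates. The 218 merged windows covered 272209 bp, in which replicates 1 to 4 had 12.5, 25.3, 27.6 and 27.6 summits per 100 kb. The chromosomes as a whole, weighted in the same way, had 19.9, 28.0, 27.3 and 27.7. The ratios were 0.628, 0.905, 1.01 and 0.996, with replicate 1 the lowest. In the pooled list the density was 0.735 in srh windows, against 2.76 on the chromosomes (ratio 0.267), from 2 summits. In the final list it was 0, against 0.174.

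The profile of summits around srh starts was flat within the spread between replicates. In the 250 bp just upstream of the annotated 5′ end the replicates averaged 6.82 ± 3.46 summits per 100 srh genes, against 8.18 ± 0.720 for other genes (SD, n = 4). In the first 250 bp of the gene they averaged 6.25 ± 4.22 for srh genes and 7.68 ± 1.25 for other genes. In the bin that begins 1000 bp upstream they averaged 4.89 ± 2.08 for srh genes and 6.69 ± 0.839 for other genes. The spread between replicates of the srh values is as large as these differences.

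**Figure D4:**
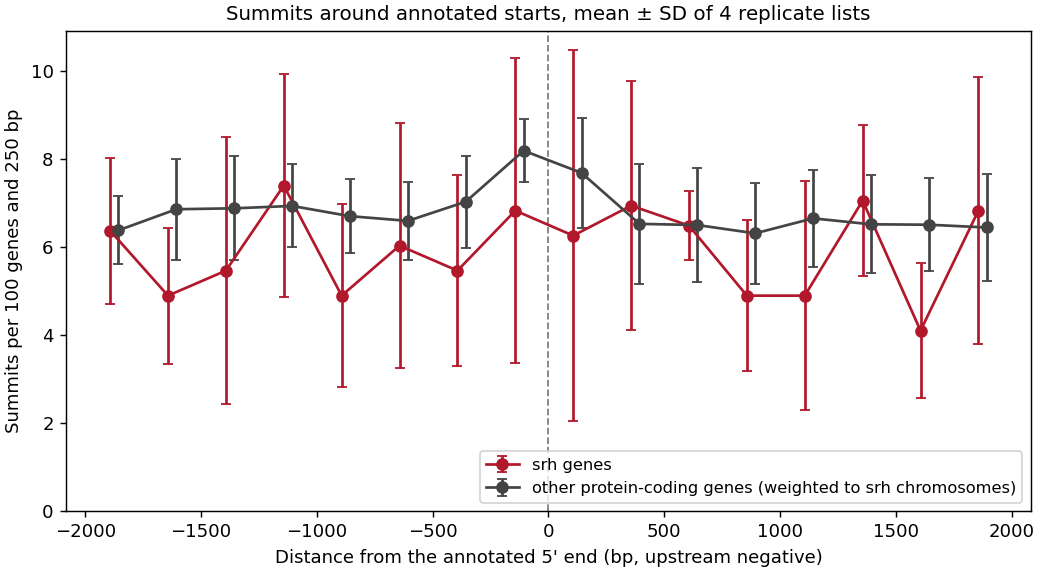
Summits per 100 genes in bins of 250 bp (vertical axis) by distance from the annotated 5′ end (horizontal axis, bp, upstream negative), as mean ± SD of 4 replicates for srh genes and for other protein-coding genes weighted by chromosome. Other genes have their highest value just upstream of the start (8.18), while the srh bars at that bin (6.82 ± 3.46) overlap those of the bins around it.

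Gene bodies gave a like picture. Summits lay between the ends of the gene, a stretch that includes the last 200 bp of the window, in 21.8%, 47.3%, 35.5% and 38.6% of members in replicates 1 to 4, against 35.0%, 48.9%, 42.5% and 44.4% of other genes after weighting. Pooled summits did so in 5 srh genes (2.27%), against 5.59% of other genes. Genes of the srh family were shorter, with a median of 1557.5 bp against 2038 bp, and the part of length in these shares was not tested.

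The members were also split by position and by neighbours, without a test. On V, the 155 srh genes of the arms averaged 26.8% ± 7.57, against 29.8% ± 4.02 of other genes there, and the 25 srh genes between the arms averaged 29% ± 11.5, against 37.8% ± 3.07 (SD over 4 replicates, all peaks). The 27 srh genes with a divergent protein-coding start within 1000 bp upstream averaged 36.1% ± 10.2, against 25.4% ± 7.60 for the 193 without one. Their share was the higher one in each replicate, but nearly the same in replicate 2 (29.6% against 29.0%). None of those 27 had a pooled peak, against 2 of the 193, and at so low a share a 0 among 27 genes is no difference. Other genes were not split in this way. The start nearest to a summit in an srh window was that of an srh gene for 29 of 34, 59 of 69, 66 of 75 and 67 of 75 summits. The 7 srh genes of IV had shares of 0%, 0%, 0% and 28.6%, too few genes to describe a chromosome. The share of other genes of IV alone is not given here. Among the 7 are srh-227 and srh-228, where only 8.87% of the 30-base words of the window occurred once in the genome.

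Repeated sequence touched some members. At least 95% of the 30-base words of the window occurred once in the genome for 151 srh genes (68.6%), against 79.2% of other genes. The 2 pairs srh-57 and srh-305 on II and srh-227 and srh-228 on IV had identical 300-base promoters, and their values are uncertain, since reads cannot be placed between them. The unique srh genes averaged 28.6% ± 9.42 in the replicate lists, against 42.6% ± 2.94 of unique other genes before weighting. Of the unique srh genes, 1 had a pooled peak (0.662%), against 10.7% of unique other genes before weighting and 6.87% after it. The srh genes below that limit averaged 22.5% ± 7.53, against 24.0% ± 2.89 of other genes below it. After weighting by chromosome, the difference among unique genes was -8.85 points.

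In base composition the srh promoters were like others of their chromosome. The median GC content of the 300-base stretch was 33.7% for srh genes, against 34.3% for other genes, and on V it was 34% for both. Genes with a final peak had 37.2%. The word GAGAGA or TCTCTC, searched on both strands, was found in 24 srh promoters (10.9%), against 21.9% of all other promoters of this length and 19.9% of those on V. It was found in 113 promoters of the other receptor families (10.4%) and in 76 of the 222 promoters with a final peak (34.2%). The palindrome CACGTG was found in 10 srh promoters (4.55%), against 5.83% of other promoters. The word TTTTTT or AAAAAA was found in 174 srh promoters (79.1%), against 80.1%. These matches describe letters and were not tested.

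The other chemoreceptor families also had few pooled peaks. Together 19 of their 1089 genes had a pooled peak, and 11 of the 21 families had none. The next in size were str, with 1 of 193 genes and 24.2% ± 5.52 in the replicate lists, srw, with 2 of 109 genes and 25.7% ± 4.85, and srx, with no pooled peak and 28.2% ± 5.63. The srh value of 26.7% ± 7.58 lay among them. The highest pooled share among the larger families was that of srg, with 4 of 61 genes (6.56%). Weighted to the srh chromosomes, the families averaged 17.8%, 24.5%, 29.8% and 27.6% in replicates 1 to 4, below 29.0%, 33.7%, 36.9% and 35.4% for all other genes. No family was tested against srh.

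**Figure D5:**
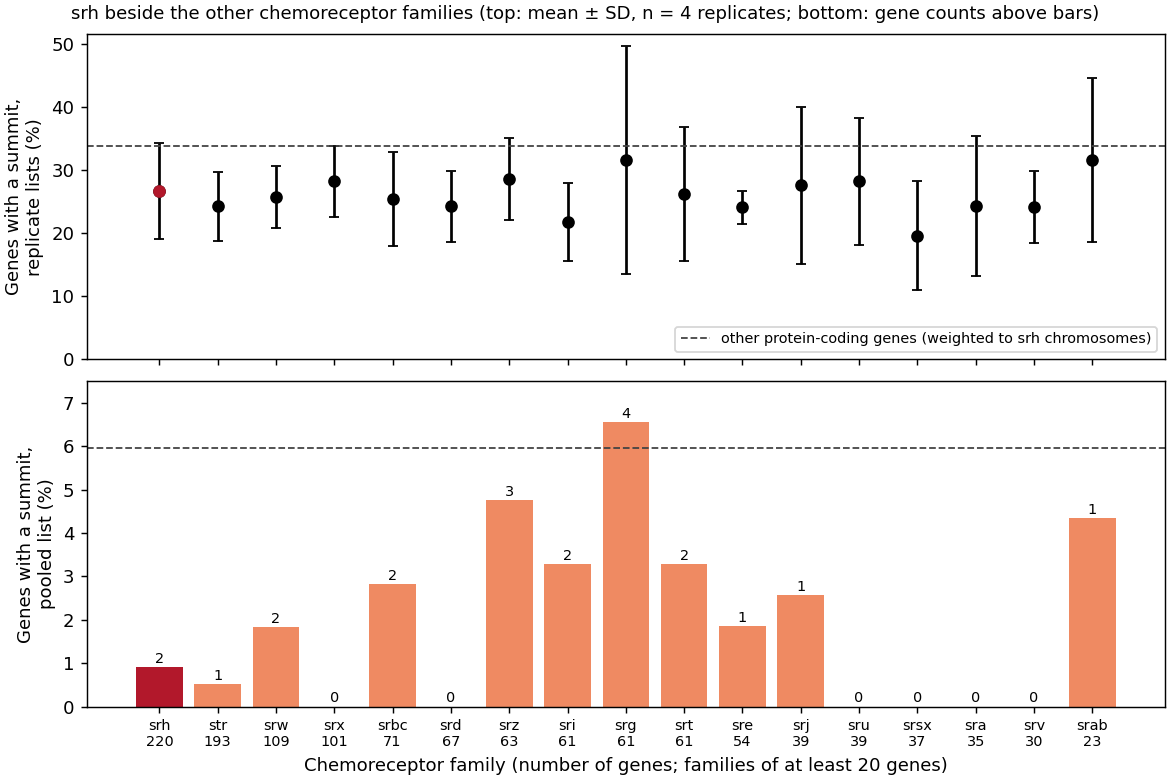
Chemoreceptor families of at least 20 genes, with srh first: mean ± SD over 4 replicates of the share of genes with a summit (top, percent) and share with a pooled summit (bottom, percent, with gene counts above the bars). Dashed lines give other protein-coding genes weighted to the srh chromosomes; the srh mean (26.7%) and pooled share (0.909%) lie below them, as do most families.

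The strongest pooled peaks at receptor genes were all at other families. They were at sre-23 (rank 316), srz-79 (rank 1514), srg-41 (rank 1752), srg-13 (rank 1965), and srz-82 and srz-37, which share 1 peak (rank 2026). The sre-23 summit lay 710 bp upstream of that gene and 151 bp from the start of a snoRNA gene, ZK265.10. The srg-13 summit was also nearer to another gene, T23F11.11. All of these outranked the srh-11 peak at 3420. They were picked as the strongest of 19 genes with a pooled peak, against 2 srh genes, so these ranks are no comparison of the families.

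Genes that act with the receptors were measured in the same way. Of 32 genes for signalling, receptor transport and sensory neuron identity, 0 had a final and 3 (9.38%) a pooled peak, against 9.34% of other protein-coding genes before weighting, so the list as a whole was at the background. The 3 were egl-30, the Gq alpha subunit, with its strongest summit at rank 410 and -12 bp, egl-4, a cGMP-dependent protein kinase, at rank 687 and -406 bp, and daf-19, the RFX factor of ciliated neurons, at rank 1766 and -228 bp. The 4 genes of receptor transport (among them odr-4 and odr-8) had no pooled peak, and 3, 2, 3 and 3 of them had a summit in replicates 1 to 4. Over all 32 genes the replicate counts were 11, 12, 20 and 17, or 34.4%, 37.5%, 62.5% and 53.1%, against 35.1%, 37.9%, 41.6% and 40.4% of other protein-coding genes. In replicates 1 and 2 these shares were also near the background. The receptor odr-10, whose ligand is diacetyl, had summits in replicates 1, 3 and 4 and no pooled peak.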

How the data were processed

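The labels describe ChIP-seq of 4 biological replicates of 1 strain, and no contrast between groups. Per the deposited file records, each replicate list was called by the authors from its own alignment against 1 control shared by all replicates, the pooled list from all alignments together, and the final list by a cut on irreproducible discovery rate. The file records and labels name no aligner, peak caller or threshold. The deposited lists give each peak's signal value, on a scale that is not stated, and its −log10 q-value. Signal values were used only to rank and describe peaks within a list. The ce11 lists were used, and the ce10 lists were not. Replicates are separate biosamples per the labels, and no peak had identical coordinates in 2 replicate lists.

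Gene models came from Ensembl release 115 on WBcel235 (symbols also from RefSeq), and sequence from the RefSeq copy of that assembly. Positions are 1-based. The promoter window, the weighting of other genes to the chromosomes of the srh genes, and the sign-flip test over replicates are as in the results, with Python 3.11.15, numpy 2.4.6, pandas 2.3.3 and scipy 1.17.1. Counting was tested on simulated peaks. The members, lists and comparisons were chosen with earlier results of these data known. Genes named are srh genes with a final or pooled summit, those with a summit in 4 of 4 replicates, the 2 best-ranked of each replicate, the 5 nearest to a final summit, the 6 strongest receptor genes of other families in the pooled list, and pathway genes with a pooled summit. Outside that rule, and chosen after values were seen, are the genes in 3 of 4 replicates given with values, srh-220, srh-234, odr-10, the transport genes named, the pairs with identical promoters, genes named as the nearest start of a summit, and his-37, which is the strongest final peak of V in a shown stretch. Alternatives changed the window, the starts, the assignment, the comparison genes, the peak threshold and the replicates. Those on V alone, its arms, unique windows, start codons and equal list lengths were added after seeing the data. All columns of per-sample values were used or listed, leaving 0 unmapped.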

Additional observations from a re-analysis of the deposited data

Results flagged for a closer look

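Replicate 1 stood apart from the other replicates in 3 of the 10 measures examined for a lone value, and chance gives such a lone value in about 1 in 20 groups. These 3 measures restate the same srh genes and summits, so they count as 1 observation. The share of srh genes with a summit was 15.5% in replicate 1, against 29.1% to 31.8% in the others. The difference from other genes was -13.6 points in replicate 1, against -5.12 to -4.57 in the others. Summits in srh windows numbered 12.5 per 100 kb in replicate 1, against 25.3 to 27.6. The list of replicate 1 was also the shortest, with 23684 peaks against 30000. With as many strongest peaks as that list holds, the 4 differences were -13.6, -6.67, -7.87 and -3.46 points. The gap of replicate 1 to the nearest other value was then 0.564 of the range, and replicate 1 no longer stood apart. Without replicate 1 the mean difference over all peaks was -4.88 points. The share and the density were not examined at equal list length.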

How the results depend on the processing

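No srh gene had a final peak under any of the 14 alternatives run. That outcome was fixed in advance, so it is no sign of robustness. The nearest final summit lay 11823 bp from an srh start, beyond every window tried. The other alternatives only kept subsets of the genes or peaks. No difference between srh and other genes changed sign in its mean. The pooled count of 2 of 220 srh genes became 8 of 220 with a window reaching 2000 bp upstream, where the share of other genes was 8.70%. It became 6 when any 1 bp of a peak counted, against 6.85% of other genes, and 0 with the stronger 50% of the peaks, against 3.44%. With a −log10 q-value of at least 2 it was 0, against 0.414% of other genes. Since 1 of 220 srh genes is 0.455%, that 0 is no difference. The pooled count was 1 on V alone, 1 on the arms of V and 1 among unique windows, since those hold fewer genes. Leaving out each replicate in turn gave 0 to 0 genes, under an added rule: the pooled list was not called again, a peak had to overlap the strongest peaks of every remaining replicate, and no srh gene has a summit in those of more than 1. It shows nothing about a single replicate. Leaving out each replicate moved the mean difference between -7.88 and -4.88 points for all peaks, between -3.66 and -2.65 for the strongest peaks, and the rank difference between 12.9 and 19.9 percentile points. Over the other alternatives these means ran between -12.0 (no weighting) and -0.811 (start codons), between -6.77 (10000 peaks) and -0.444 (312 peaks), and between 9.18 and 15.5. Per replicate, the rank difference turned in replicate 4 to -0.798 with nearest-start assignment, -1.26 on the arms of V and -2.31 among start-codon genes; the cause was not tested. The rank difference carries no weighting, so that alternative was not run for it. The difference in the strongest peaks turned in replicate 4, to 0.0252 points, with 312 peaks. No paired analysis was possible because the labels give 1 group of samples, which leaves no groups to pair; srh and other genes were compared within each replicate throughout. Unknown read depth, 4 replicates, 1 shared control and 312 final peaks limit what a count of 0 can show.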
